A study of Arabidopsis thaliana with 21 samples.

Results

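This account concerns 2 pirin genes of Arabidopsis thaliana, AT2G43120 (PIRIN2, PRN2) on chromosome 2 and AT1G50590 on chromosome 1. They are among 16411 genes with a probe set that the platform annotation named and that matched a single gene in RefSeq. Genes whose probe sets had no name are not in this count. The 2 pirin genes were picked from earlier results of these data because both transcripts were lower in one of a pair of midpoint tubes than in the other, and because AT1G50590 was low at the end of the tenth parabola. Each of them had 1 probe set matched to it alone, so choosing the brightest per gene left out no other such probe set. Whole roots of wild-type Wassilewskija (WS) seedlings, 12 days old and grown under 24 h light, were flown on a C-9 aircraft, whose parabolas alternate increased and near-zero gravity. Seedlings were fixed with RNAlater in hand-operated Kennedy Space Center Fixation Tubes, and 7 tubes gave 3 arrays each. In level flight, 1 min ahead of parabola 1, the level flight tube was actuated. Of the remaining tubes, 1 was actuated at the pull-up into parabola 1, 2 at its midpoint (tube A by crew member A and tube B by crew member B), and 1 each when parabola 1, parabola 3 and parabola 10 ended. All groups share ecotype, genotype, age, tissue and fixative. Per the labels, the replicates of a group were root pools from a single tube, so p-values here measure the spread between pools of a tube and not between tubes or flights, and stage and tube cannot be told apart except at the midpoint.

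Pirins are small iron-binding proteins of the cupin superfamily, found from bacteria to mammals. In Arabidopsis, PRN1 (AT3G59220) was found as a binding partner of GPA1, the alpha subunit of the heterotrimeric G protein, and PIRIN2 was found to stabilise XCP2, a papain-like protease of xylem cells, and to affect susceptibility to a root-invading bacterial pathogen and the composition of lignin. No such role is assigned here to AT1G50590, which is named by its locus. The RefSeq annotation (assembly TAIR10.1) placed no other gene across either locus, and listed 2 transcripts for AT2G43120 and 3 for AT1G50590, which a single probe set per gene does not separate.

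All levels are log2 values made with RMA, on which a step of 1 is a doubling. The probe set of AT2G43120 had a mean of 8.84 over the 21 arrays, brighter than 98.6% of the 17481 named probe sets, and that of AT1G50590 a mean of 5.26, brighter than 76.7% of them. Column medians lay between 2.92 and 3.04, so both were above the middle of every array. Brightness depends on the probes as well as on the transcript, so the levels of the 2 genes are not set against each other.

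AT2G43120 gave values of 9.48, 9.66 and 9.82 in the 3 level flight arrays. Parabola 1 start gave 8.25, 7.98 and 8.16. Midpoint tube A gave 8.27, 7.50 and 8.19, against 9.64, 9.96 and 9.39 in tube B. Tube B thus lay near the level of level flight while tube A, labelled with the same stage, lay near that of parabola 1 start. Parabola 1 end gave 9.31, 8.69 and 8.55, and parabola 3 end gave 8.86, 9.31 and 8.88. Parabola 10 end gave 8.74, 8.95 and 8.13. All 9 arrays of the parabola ends lay below the lowest level flight array, and all but parabola 10 end replicate 3 lay above the highest array of parabola 1 start and tube A.

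AT1G50590 gave values of 5.89, 6.18 and 6.29 in level flight. Parabola 1 start gave 4.37, 4.61 and 4.68. Midpoint tube A gave 4.82, 4.58 and 4.68, against 6.13, 6.64 and 5.96 in tube B. The same pair of tubes, level flight and tube B, was high, and the same pair, parabola 1 start and tube A, was low. Parabola 1 end gave 5.91, 5.05 and 5.38, and parabola 3 end gave 5.09, 5.41 and 5.23. Parabola 10 end gave 4.68, 5.00 and 3.93, so this gene was as low there as at the start of parabola 1.

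**Figure D1:**
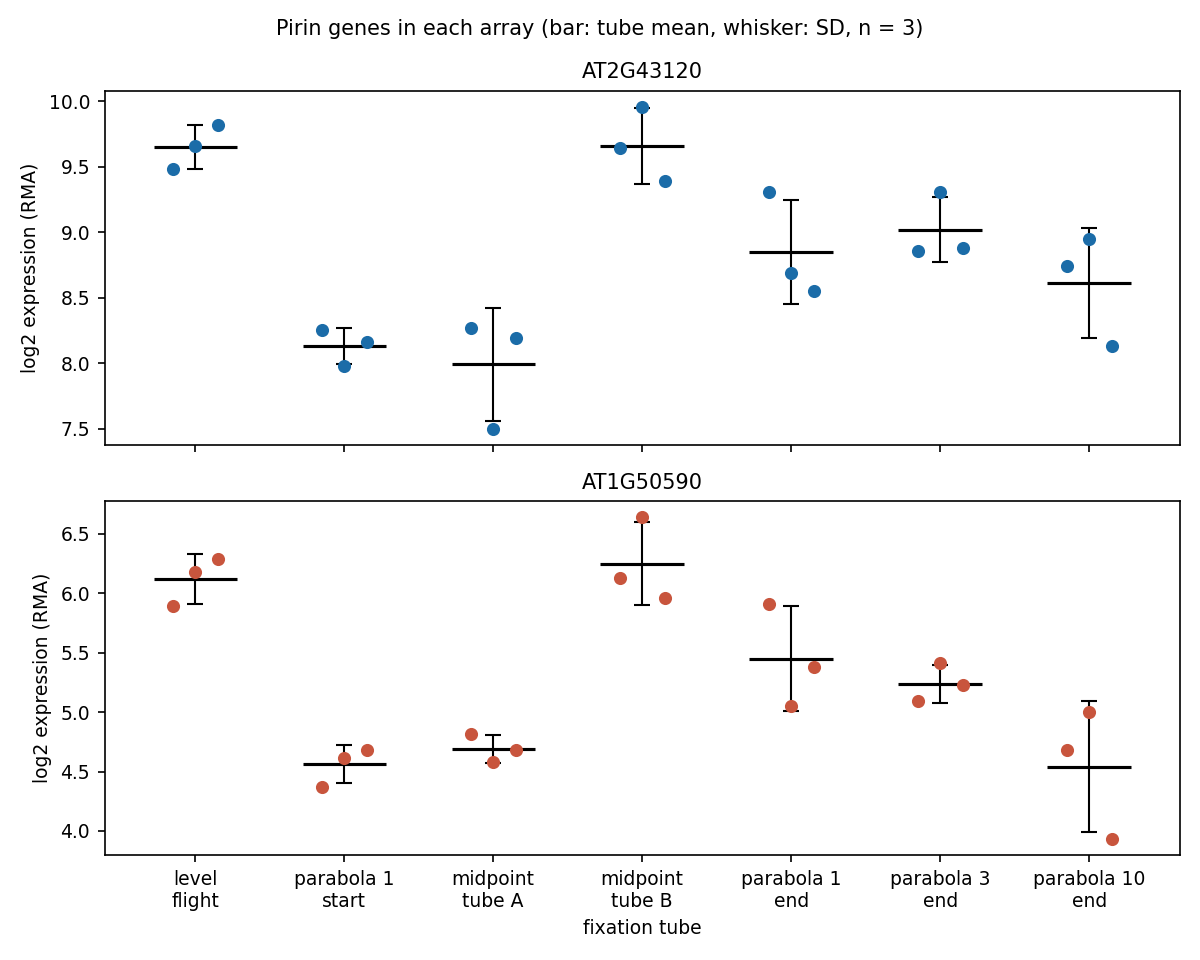
Log2 expression (y axis) of AT2G43120 (upper panel) and AT1G50590 (lower panel) in each of the 21 arrays by fixation tube (x axis); points are arrays, horizontal bars tube means and whiskers the SD of 3 arrays. In both panels level flight and tube B sit high and parabola 1 start and tube A low, and AT1G50590 is low again at parabola 10 end, where its arrays span 3.93 to 5.00.

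Ordered by tube means, AT2G43120 stood highest in tube B (9.66 ± 0.29, SD, n = 3 here and below) and level flight (9.65 ± 0.17), followed by parabola 3 end (9.02 ± 0.25), parabola 1 end (8.85 ± 0.40), parabola 10 end (8.61 ± 0.42), parabola 1 start (8.13 ± 0.14) and tube A (7.99 ± 0.43). Only between level flight and parabola 3 end did neighbours in this order have arrays that did not overlap. AT1G50590 stood highest in tube B (6.25 ± 0.35) and level flight (6.12 ± 0.21), followed by parabola 1 end (5.45 ± 0.44), parabola 3 end (5.24 ± 0.16), tube A (4.69 ± 0.12), parabola 1 start (4.56 ± 0.16) and parabola 10 end (4.54 ± 0.55). Its single step without overlap between neighbours was that from parabola 3 end to tube A. These levels chose the genes in part and are given as a description.

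At the start of parabola 1 both transcripts fell relative to level flight, where fell, lower and higher compare tubes and do not follow the same roots over time. AT2G43120 averaged 8.13 ± 0.14 there and 9.65 ± 0.17 in level flight, a log2 difference of -1.52 (SE 0.23, 2.87-fold lower, limma adjusted p = 0.00042). AT1G50590 averaged 4.56 ± 0.16 and 6.12 ± 0.21, a difference of -1.56 (SE 0.23, 2.96-fold lower, limma adjusted p = 0.000341). For both genes, every parabola 1 start array lay below every level flight array. Both of the 2 genes were called, where 4.16% of all named probe sets were called in this comparison. The calls held in all 14 alternatives run for each gene, with limma adjusted p from 9.71e-05 to 0.0235 for AT2G43120 and from 0.000105 to 0.0203 for AT1G50590. Only the tube as a random block allowed for differences between tubes, with the same correlation for all probe sets. In size, the differences were 90.7% (AT2G43120) and 101% (AT1G50590) of the gap between midpoint tubes A and B. Those tubes were fixed at one stage, and the genes were chosen for that gap. The level flight arrays had also entered the choice of AT1G50590. Its p-values against level flight, here and at the ends of parabolas 1 and 3 below, are therefore not independent support.

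Both midpoint tubes were fixed at one stage, and the genes were chosen for a large gap between them. Tube A minus tube B was -1.68 for AT2G43120 (SE 0.23, 3.20-fold lower in tube A) and -1.55 for AT1G50590 (SE 0.23, 2.93-fold lower in tube A). No test is given for that reason, and 1.40% of named probe sets were called in this comparison. Against level flight, tube A was lower by log2 differences of -1.67 for AT2G43120 and -1.43 for AT1G50590, while tube B differed by 0.01 and 0.12, with 5.14% of named probe sets called for tube A and 0.0458% for tube B. Both comparisons share the level flight arrays.

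**Figure D2:**
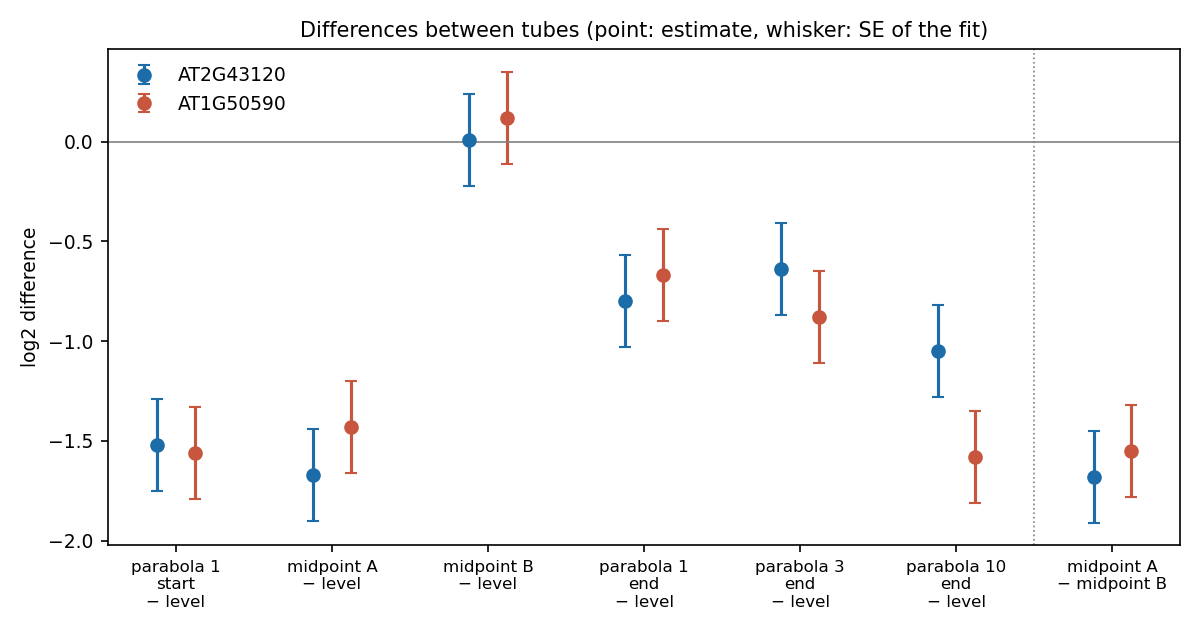
Log2 differences (y axis) of each tube from level flight, and of tube A from tube B (right of the dotted line), for AT2G43120 (blue) and AT1G50590 (red); whiskers are the SE of the fit. Tube B lies at 0.01 and 0.12, while parabola 1 start, tube A and the gap between tubes A and B lie between -1.43 and -1.68.

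At the parabola ends the values lay between these extremes, except for AT1G50590 at parabola 10 end. At the end of parabola 1, AT2G43120 had a difference of -0.80 from level flight (SE 0.23, limma adjusted p = 0.096) and AT1G50590 of -0.67 (SE 0.23, limma adjusted p = 0.176), and neither passed, with 1.14% of named probe sets called. Without parabola 1 end replicate 1, which was the highest of its tube for both genes, AT2G43120 had -1.03 (limma adjusted p = 0.0353). The 95% interval of the difference with all arrays ran from -1.28 to -0.33 for AT2G43120 and from -1.15 to -0.20 for AT1G50590.

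At the end of parabola 3, the differences from level flight were -0.64 (SE 0.23, limma adjusted p = 0.265) for AT2G43120 and -0.88 (SE 0.23, limma adjusted p = 0.094) for AT1G50590, with 0.458% of named probe sets called. Arrays of both genes lay below every level flight array. AT1G50590 passed when the fit held only the 6 arrays compared (limma adjusted p = 0.038) or weighted the arrays (limma adjusted p = 0.041).

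At the end of parabola 10, AT2G43120 fell to 8.61 ± 0.42, against 9.65 ± 0.17 in level flight, a difference of -1.05 (SE 0.23, 2.07-fold lower, limma adjusted p = 0.0256), with 1.45% of named probe sets called. The call was kept without parabola 10 end replicate 2 (-1.22, limma adjusted p = 0.0252) and lost when each of the other arrays of the comparison was left out in turn: leaving out level flight replicate 1, 2 or 3 gave an adjusted p of 0.0506, 0.0713 or 0.0931, and leaving out parabola 10 end replicate 1 or 3 gave 0.0502 or 0.132. With the tube as a random block the limma adjusted p was 0.462, against 0.0235 for the same gene at parabola 1 start. That block used the same correlation (0.221) for all probe sets, not one estimated for this gene, whose tubes A and B differed by -1.68. Neither p therefore measures the spread between tubes of this gene. AT1G50590 averaged 4.54 ± 0.55 at parabola 10 end and 6.12 ± 0.21 in level flight, a difference of -1.58 (SE 0.23, 3.00-fold lower), for which no test is given because it led to the choice of the gene. The difference was -1.28 without parabola 10 end replicate 3, the lowest array of the series for this gene. Whether the larger difference of AT1G50590 departs from that of AT2G43120 was not tested.

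Among the later tubes, AT1G50590 was lower at parabola 10 end (4.54 ± 0.55) than at parabola 1 end (5.45 ± 0.44), by a log2 difference of -0.91 (SE 0.23), where 2.33% of named probe sets were called. The parabola 10 end arrays had entered the choice of AT1G50590, so its values against them are a description with no test. The difference was -0.67 without parabola 1 end replicate 1 and -0.61 without parabola 10 end replicate 3. AT2G43120 had -0.24 in the same comparison (95% interval -0.72 to 0.23, limma adjusted p = 0.692). Parabola 10 end against parabola 3 end gave -0.70 for AT1G50590 and -0.41 for AT2G43120 (limma adjusted p = 0.613 for AT2G43120), with 0.549% of named probe sets called. Parabola 3 end against parabola 1 end gave -0.21 for AT1G50590 and 0.17 for AT2G43120 (limma adjusted p = 0.906 and 0.922), and 0% of named probe sets were called there.

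Parabola 1 end, set against parabola 1 start, had higher values of both genes, by 0.72 for AT2G43120 (95% interval 0.25 to 1.19, limma adjusted p = 0.147) and by 0.89 for AT1G50590 (95% interval 0.41 to 1.37, limma adjusted p = 0.0721). The arrays of these tubes did not overlap for either gene, but neither passed, with 0.664% of named probe sets called. AT1G50590 passed without parabola 1 end replicate 2 (1.09, limma adjusted p = 0.0364) and when only probe sets at or above the median brightness were fitted (limma adjusted p = 0.0459).

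The values of the 2 genes also moved together between root pools of the same tube, which the choice of genes did not use. Probe sequences were not given, so whether probes of one gene also bind the transcript of the other was not tested. Each array was expressed as its deviation from its tube mean. Parabola 10 end replicate 3 lay lowest of its tube for both genes, at -0.47 for AT2G43120 and -0.60 for AT1G50590. Parabola 1 end replicate 1 lay highest, at 0.46 and 0.47, as did midpoint tube B replicate 2, at 0.30 and 0.40. The deviations had the same sign in 18 of 21 arrays, and the highest array of a tube was the same for both genes in 6 of 7 tubes.

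Pearson's r between the deviations of the 2 genes was 0.81 and Spearman's rho 0.84 (n = 21 arrays, permutation of one gene within tubes with 100000 resamples, two-sided, p = 0.0006 and 0.00032). This was the single relation tested, so no adjustment was needed. Without the 2 arrays farthest from the median deviation of AT2G43120, r was 0.81 (n = 19, permutation p = 0.0077), and without both midpoint tubes it was 0.85 (n = 15, permutation p = 0.01). As background, 0.0975% of 16410 genes had a within-tube r with AT2G43120 at least as high as that of AT1G50590, and 0.0731% had one with AT1G50590 at least as high as that of AT2G43120, while the median gene had 0.03 with either. In the parabola 1 start tube the order of the arrays differed between the genes: AT2G43120 lay at 0.12, -0.15 and 0.03 from its tube mean and AT1G50590 at -0.18, 0.06 and 0.12.

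**Figure D3:**
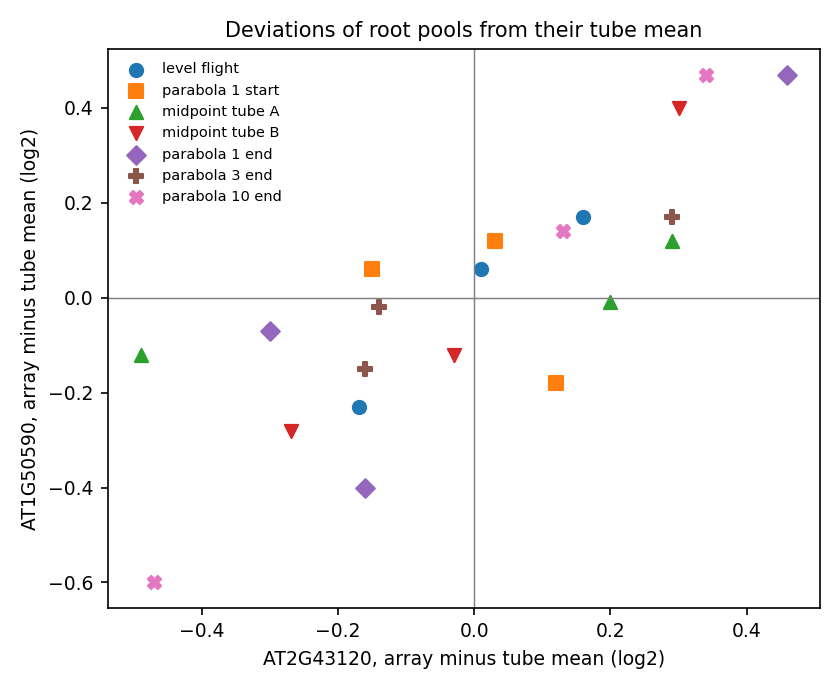
Deviation of each array from its tube mean on the log2 scale for AT2G43120 (x axis) and AT1G50590 (y axis); symbols mark the 7 tubes, with 3 arrays each. The points run from parabola 10 end replicate 3 at lower left (-0.47, -0.60) to parabola 1 end replicate 1 at upper right (0.46, 0.47), with r of 0.81 over 21 arrays.

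At parabola 1 start and in tube A, the other members of the pirin family had smaller differences from level flight than the pair, a contrast between genes that was not tested. PRN1 (AT3G59220, listed as PRN) had a mean of 9.56, brighter than 99.3% of named probe sets, and varied little between pools (residual SD 0.10, against 0.32 for each of AT2G43120 and AT1G50590). At the start of parabola 1 it averaged 9.79 ± 0.11, against 9.50 ± 0.09 in level flight, a difference of 0.29 with the opposite sign to the pair (limma adjusted p = 0.129). In tube A it averaged 9.53 ± 0.05, against 9.74 ± 0.16 in tube B, a difference of -0.21 (limma adjusted p = 0.43).

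PRN1 was lowest at the end of parabola 10, with 9.02, 9.21 and 9.12, against 9.61, 9.74 and 9.80 at the end of parabola 1. That difference was -0.60 (SE 0.10, 1.52-fold lower, limma adjusted p = 0.00239). Against level flight, parabola 10 end gave -0.39 for PRN1 (limma adjusted p = 0.0634). AT3G59260 lies on chromosome 3, with 4 genes between it and PRN1 in RefSeq. Its mean was 1.88, below the array median. On all arrays it lay between 1.56 and 2.22, where a level above background was not shown. Its differences from level flight ran from -0.11 to 0.14, and none passed. Of the 4 family loci, the 2 called at the start of parabola 1 were the chosen pair, so nothing is read from that count beside the 4.16% of named probe sets called, and PRN1 and AT3G59260 had 0.29 and 0.06 there.

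**Figure D4:**
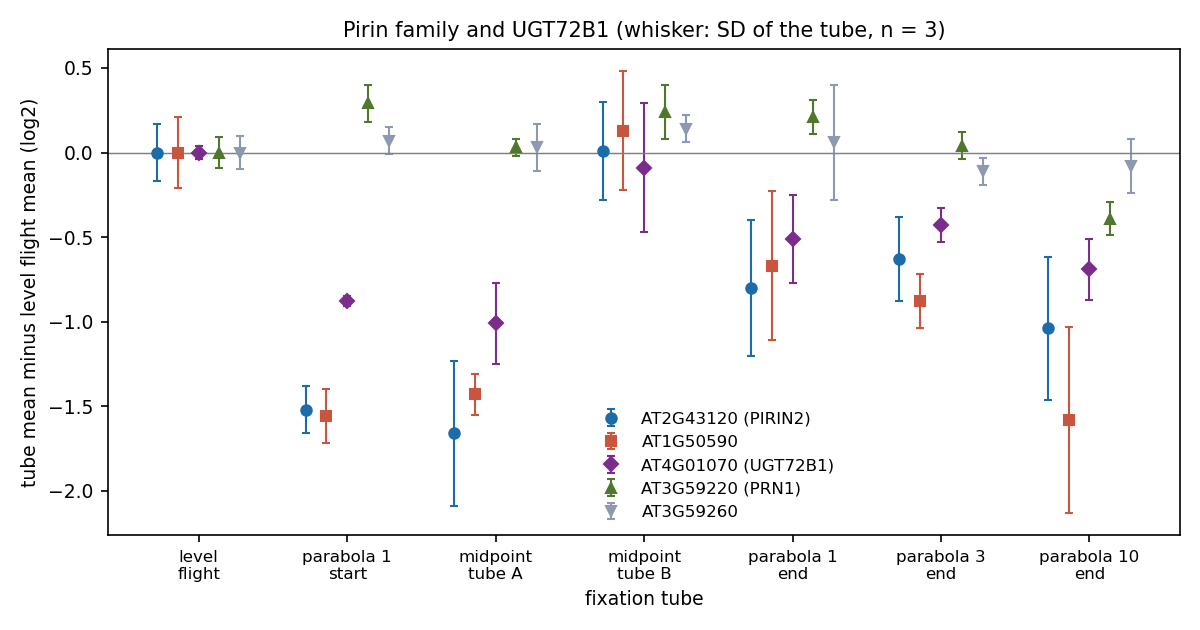
Tube mean minus level flight mean on the log2 scale (y axis) for the 4 pirin genes and UGT72B1 by fixation tube (x axis); whiskers are the SD of 3 arrays. AT2G43120, AT1G50590 and UGT72B1 are low at parabola 1 start and in tube A and near 0 in tube B, PRN1 is highest at parabola 1 start (0.29) and lowest at parabola 10 end (-0.39), and AT3G59260 stays between -0.11 and 0.14.

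Among 8190 genes at or above the median brightness, the pattern most like that of AT2G43120 over the 21 arrays was that of AT4G01070, which encodes UGT72B1 (listed as GT72B1), a glucosyltransferase that conjugates foreign phenols and anilines and lignin precursors. Its Pearson r with AT2G43120 was 0.96 and its Spearman rho 0.95. With AT1G50590 its r was 0.91, second to that of AT2G43120 itself (0.91). UGT72B1 was at 7.38, 7.33 and 7.34 at parabola 1 start, against 8.20, 8.21 and 8.28 in level flight, and at 7.37, 6.95 and 7.36 in tube A, against 8.12, 8.53 and 7.78 in tube B. Its differences in these comparisons were -0.87 and -0.92. Within tubes, r was 0.80 with AT2G43120 and 0.77 with AT1G50590.

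Next to AT2G43120 came AT5G01380 (r = 0.93, within tubes 0.92), AT1G50590 (0.91), AT3G57120 (0.91) and AT3G52360 (0.91). Next to AT1G50590 came AT5G49850 (r = 0.87), AT3G19990 (0.87) and AT4G19720 (0.85), of which AT4G19720 had a within-tube r of 0.29. AT5G01380 averaged 5.26 ± 0.19 at parabola 1 start, against 6.47 ± 0.31 in level flight, and 5.15 ± 0.34 in tube A, against 6.01 ± 0.19 in tube B. Leaving out both midpoint tubes, r with AT2G43120 was 0.97 for AT5G01380 and 0.95 for UGT72B1 over 15 arrays. Arrays of a tube share their source, and these correlations describe the data without a test.

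The genes least like AT2G43120 were AT2G45460 and SKU5, and those least like AT1G50590 were EXO and AT2G16940. SKU5, a cell surface protein of directional root growth, had r = -0.81 with AT2G43120 and was at 6.13 ± 0.06 at parabola 1 start, against 5.59 ± 0.20 in level flight, and at 6.29 ± 0.25 in tube A, against 5.68 ± 0.07 in tube B. AT2G45460 had r = -0.82. EXO (EXORDIUM), a brassinosteroid-induced gene involved in cell expansion, had r = -0.80 with AT1G50590 and was at 4.32 ± 0.12 at parabola 1 start, against 3.73 ± 0.17 in level flight. AT2G16940 had r = -0.79.

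Of the processes in which pirins are known to act, few genes had a named probe set matched to a single gene, and only these were counted as measured. The platform annotation named 17481 of 38408 probe sets, so a gene not measured here may still have a probe set on the array. The shares called and the rankings by likeness rest on named probe sets only. The partners GPA1, XCP2, HUB1 and HUB2 and the 9 genes of the G protein list were not analysed here, nor were the 12 xylem markers. Of 16 papain-like proteases, 6 were measured, and none passed at parabola 1 start, where 4.16% of named probe sets were called (median -0.26 against 0.01 over all named probe sets). AT3G19390 of this list fell at parabola 1 end against level flight (-0.55, SE 0.11, limma adjusted p = 0.0141; 1.14% of named probe sets called) and was higher at parabola 10 end than at parabola 1 end (0.90, SE 0.11, limma adjusted p = 7.34e-05). AT4G16190 was also higher there (0.64, limma adjusted p = 0.016), with 2.33% of named probe sets called. At parabola 10 end against parabola 3 end, AT3G19390 had 0.77 (limma adjusted p = 0.00236), with 0.549% of named probe sets called.

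Of 13 flavonol genes, chosen because some pirins can break down the flavonol quercetin, 4 were measured. AT1G06000 was lower at parabola 10 end than in level flight (-0.57, SE 0.13, limma adjusted p = 0.0271) and in tube A than in tube B (-0.64, SE 0.13, limma adjusted p = 0.0132), where 1.45% and 1.40% of named probe sets were called, and no other member passed. UGT78D1, UGT78D2 and UF3GT had means from 1.76 to 2.12, below the array median. HCT, an enzyme of monolignol synthesis and the 1 measured gene of 20 in the lignin list, had differences of -0.03 between parabola 1 start and level flight and of -0.04 between tubes A and B.

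Because root pools were cut from whole fixed seedlings, leaf transcripts were followed through RCA, LHCB4.1, PRK and SBPASE, the 4 measured of 15 shoot markers. Their mean log2 level ran from 3.66 to 3.82 over the arrays of parabola 1 start, against 3.44 to 3.68 in level flight, and from 3.68 to 3.80 in tube A, against 3.65 to 4.14 in tube B. Their level on the linear scale, summed over the 4 genes, ran from 58.7 to 65.0 at parabola 1 start, against 46.2 to 57.1 in level flight, and from 58.5 to 66.1 in tube A, against 55.6 to 79.7 in tube B. It ran from 51.0 to 63.4 at parabola 1 end, from 53.0 to 65.4 at parabola 3 end and from 59.2 to 69.0 at parabola 10 end. None of the 4 passed in a comparison tested here. The 2 measured of 7 root hair markers, EXPA7 and EXPA18, had a summed level of 25.0 to 32.3 at parabola 1 start, against 22.4 to 24.6 in level flight, and of 17.4 to 26.7 in tube A, against 25.7 to 31.9 in tube B, and neither passed. The part of such cells in the pirin differences was not tested, and in whole roots fewer cells of a type and less RNA per cell cannot be told apart.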

How the data were processed

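Affymetrix AraGene 1.0 ST arrays were hybridised after labelling that started from 100 ng of total RNA, per the labels' protocols. The deposited values are RMA values on the log2 scale, per the submitters' processing notes, which list RMA, the packages oligo and limma, R 4.0.0 and the build TAIR10. RMA corrects background, sets all arrays to nearly the same distribution and summarises probes, so a shift of all transcripts cannot be seen. There were 38408 probe sets on 21 arrays. The platform annotation named 17481 of them, and 16574 matched a single gene in RefSeq. No coordinates or sequences are given, and the number of arrays limits the precision.

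limma 3.58.1 (lmFit, eBayes, two-sided; R 4.3.3, package data.table, version 1.17.8) was fitted to all named probe sets with a mean for each of 7 groups, leaving 14 residual degrees of freedom. P-values were adjusted by Benjamini and Hochberg's method over all named probe sets of a comparison, with a threshold of 0.05. The members and lists were chosen with earlier results of these data known, so no test here is independent support. The planned tests of AT1G50590 at parabola 10 end against the other parabola ends are given as values with no p, since those arrays entered its choice. Genes named were the pirin family, passing list members (up to 4 a list), and for each member the 5 genes most like and the 2 least like it by Pearson's r among genes at or above the median brightness.

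Alternative settings used robust estimation with a variance trend, brighter probe sets only, the compared arrays alone, a replicate block, array weights, cyclic loess, all probe sets, and the loss of each array. A further one took the tube as a random block, with a correlation of 0.221 from the ratio (1.85) of the mean square between the midpoint tubes to that within tubes. This ratio was averaged over all named probe sets, and the correlation was the same for each of them. The fit was tested on simulated data shaped like parabola 1 start against level flight, in 10 runs that changed 200 of 17481 probe sets: it recovered 40.3% of log2 changes of 0.5, 92.8% of 1 and 98.5% of 1.5, and 4.78% of calls were false. The simulated arrays were drawn independently, with no difference between tubes. These rates therefore do not cover the spread between tubes in the real data.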

Additional observations from a re-analysis of the deposited data

Results flagged for a closer look

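In PRN1 (AT3G59220) the value relative to level flight differed between 2 later stages by limma's test of that difference: it was lower at parabola 10 end than at parabola 1 end by a log2 difference of -0.60 (limma adjusted p = 0.00239). Each stage is 1 tube, so stage and tube cannot be told apart.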

How the results depend on the processing

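The differences between parabola 1 start and level flight kept sign and call for both genes in all 14 alternatives. None of these used a spread between tubes estimated for the 2 genes. The parabola 10 end difference of AT2G43120 (-1.05) lost its call with all probe sets (adjusted p = 0.059) and with the tube as a random block (0.462), and without single arrays ran from -1.22 to -0.81. AT1G50590 gained a call at parabola 3 end against level flight with only the arrays compared (-0.88) and array weights (-0.93), and at parabola 1 end against parabola 1 start among brighter probe sets (0.89). Without single arrays, the range was 0.66 to 1.09 for this last result, -1.03 to -0.65 for AT2G43120 at parabola 1 end against level flight, and, for AT1G50590 at parabola 10 end, -1.82 to -1.28 against level flight, -1.14 to -0.61 against parabola 1 end and -0.94 to -0.40 against parabola 3 end. The smaller fits hold fewer arrays; for the other losses the cause was not tested. Variance trend and cyclic loess changed no call.

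The replicate block changed no call among 13 tested results: AT2G43120 at parabola 1 start had an adjusted p of 0.000799 and at parabola 10 end 0.031, and AT1G50590 0.000713 at parabola 1 start. Over named probe sets, arrays of the same number shared little deviation. Their mean correlation was 0.008 over 63 pairs in different tubes, against -0.004 over 126 pairs of different numbers in different tubes. Of 21 arrays, 8 correlated best with their own number among the 3 numbers. A link confined to few probe sets would not show in these means. The within-tube r was 0.81 to 0.85 in 3 alternatives.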
